A study of Mus musculus with 34 samples.

Results

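Renin-angiotensin mRNAs were followed through 8 genes, chosen by name as components of this hormone system, among the 23509 genes counted in each kidney. They are *Agt*, *Ren1*, *Ace*, *Agtr1a*, *Agtr1b*, *Enpep*, *Mme* and *Atp6ap2*. Polyadenylated RNA from whole kidneys was sequenced in 34 mice of the C57BL6 strain at postnatal day 28 (P28). Untreated non-transgenic mice (UNT, n = 12) were wild type and received no injection. *Pkd2*-KO mice, which lose *Pkd2* through floxed alleles and the Pkhd1/cre transgene (active in collecting ducts and other tubules) and form cysts rapidly, received PBS (n = 11) or 20 mg per kg of RGLS4326 (n = 11) under the skin on P10, P11, P12 and P19. RGLS4326 is an oligonucleotide that inhibits the microRNA miR-17. The *Pkd2*-KO mice differed from UNT mice in both genotype and injection, and the labels write their genotype as "Pdk2KO". All 11 libraries labelled as PBS were used. The study's text gives a smaller number for that group. No mice given a control oligonucleotide were analysed here.

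The renin-angiotensin system is a cascade in which renin cuts angiotensinogen to angiotensin I, angiotensin converting enzyme trims this to angiotensin II, and angiotensin II acts on type 1 receptors to constrict vessels and retain sodium. Peptidases on the cell surface then degrade or convert the peptides. In the kidney, renin is made by juxtaglomerular cells beside the glomerulus, whereas the proximal tubule produces angiotensinogen and carries converting enzyme, type 1 receptors and peptidases on its brush border. The system has long been of interest in polycystic kidney disease, where hypertension is common.

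Because the treatment targets miR-17, the longest annotated 3′UTR of each of the 8 genes (GENCODE M21, GRCm38) was searched for the letters that pair with the seed of the microRNA. Mature miR-17-5p is printed 5′ to 3′ from RefSeq (build GRCm38.p6), with its seed, bases 2 to 8, in capitals. The single match among the 8 genes is printed with 10 bases on either side and with the match in capitals.
mmu-miR-17-5p: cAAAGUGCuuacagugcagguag
*Mme* 3′UTR site: ctatttcaccCACTTTAgtgatgttga

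The full match searched was GCACTTTA, on the mRNA strand only, and a match without its first or without its last base was also counted. *Mme* had 1 match, without the first base, at base 595 of a 3′UTR of 5698 bases (chr3:63380927-63380933, plus strand). The 3′UTRs of the other 7 genes, from 187 bases in *Ren1* to 1176 bases in *Atp6ap2*, held none of these letters. Among 14200 tested genes with a 3′UTR, 3116 (21.9%) held a match and 605 (4.26%) held the full one. A match is a description of the letters and was not tested as a binding site.

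The libraries held 17603122 to 54981992 reads in genes. Levels are given as CPM, counts relative to library size after scaling with TMM factors, and differences as log2 fold changes (log2FC) with their standard errors (SE) from edgeR's quasi-likelihood test, with Benjamini-Hochberg adjusted p over all 15644 genes tested and a call at an adjusted p under 0.05. The targeted gene *Pkd2* was at 219.6 to 337.7 CPM in UNT and at 98.0 to 214.5 CPM in PBS kidneys, with no overlap, and at 170.0 to 236.9 CPM after RGLS4326. In 2 PBS libraries, replicates 2 and 11, adrenal enzyme mRNAs were abundant. *Cyp11b1*, which makes corticosterone in the adrenal cortex, was at 97.0 and 202.0 CPM there, at most 3.96 CPM in the other 9 PBS libraries, at most 4.54 CPM in RGLS4326 libraries and at 0 in all 12 UNT libraries. The calls of the 8 genes and the counts called in each gene list against PBS are therefore given with and without these libraries. The deposited tables carry running numbers that start anew, which divides the libraries into 3 numbering blocks, each with mice of every group. What a block stands for is not stated. Proximal tubule markers, which define the tissue here, were abundant in UNT kidneys, with a summed level of 29941 to 41211 CPM over 12 genes. None of these 12 genes was at 0 in every library of a group.

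The first question was how the 8 mRNAs differ between cystic and normal kidneys. Of the 7 genes that passed the filter on low counts, 6 were lower in PBS than in UNT kidneys, none was higher, and *Agt* was not called. *Agtr1b* was too low to be tested. Over all genes tested in this contrast 82.1% were called, 39% as lower and 43.1% as higher. The median log2FC was -1.23 over the 7 genes and 0.04 over all tested genes. In 5 of the 7 genes (*Ace*, *Agtr1a*, *Enpep*, *Mme* and *Atp6ap2*) every PBS mouse was below every UNT mouse, and 19.8% of all tested genes had such a separation in this direction. Without PBS replicates 2 and 11, the same 6 genes were called lower, beside 38% of the genes tested. Their log2FC was then -1.98 for *Ren1*, -1.45 for *Enpep*, -1.27 for *Ace*, -1.14 for *Agtr1a*, -0.96 for *Mme* and -0.54 for *Atp6ap2*, and that of *Agt* was 0.01.

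**Figure D1:**
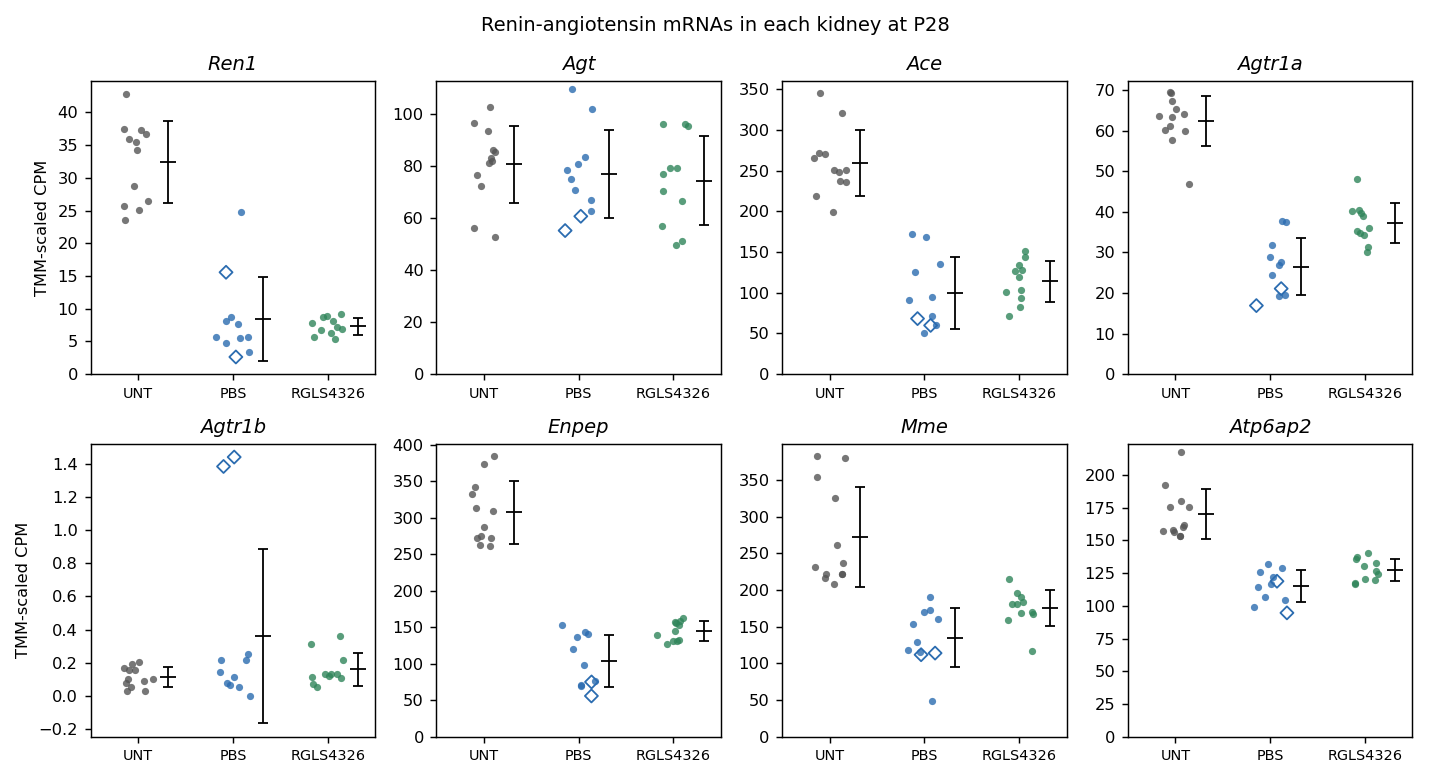
TMM-scaled CPM (linear axes) of the 8 genes in each mouse of the UNT, PBS and RGLS4326 groups. Points are single mice, horizontal bars with whiskers are the mean ± SD of a group, and open diamonds are PBS replicates 2 and 11. The PBS values of *Ace*, *Agtr1a*, *Enpep*, *Mme* and *Atp6ap2* all lie below the UNT values, those of *Agt* cover the same range, and *Agtr1b* exceeds 1 CPM only in the open diamonds.

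*Agt* (chr8:124556534-124569706, minus strand, GRCm38 as for all genes here) encodes angiotensinogen, the substrate of the cascade. Its level ran from 52.9 to 102.9 CPM in UNT mice with a median of 82.5, from 55.2 to 109.8 CPM in PBS mice with a median of 75.1, and from 49.8 to 96.3 CPM in RGLS4326 mice with a median of 77.0. The ranges of the 3 groups covered each other almost completely. The log2FC of PBS against UNT was -0.07 (SE 0.12, edgeR adjusted p = 0.60), and that of RGLS4326 against PBS was -0.05 (SE 0.13, adjusted p = 0.784). With the percentage of multiply aligned reads as a covariate, which was 22.8 to 25.7% in UNT and 14.8 to 19.4% in PBS libraries, *Agt* was called lower in PBS kidneys (log2FC -1.11, edgeR adjusted p = 9.27e-05), and with the percentage of reads outside genes as a covariate it was also called lower (-0.45, adjusted p = 0.0137). Since the percentages of multiply aligned reads do not overlap between UNT and PBS libraries, they and the groups cannot be told apart.

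*Ren1* (chr1:133350510-133360325, plus strand) encodes renin, the secreted protease that starts the cascade. It stood at 23.5 to 42.8 CPM in UNT mice (median 34.8), at 2.62 to 24.8 CPM in PBS mice (median 5.60) and at 5.35 to 9.11 CPM in RGLS4326 mice (median 7.27). Among PBS mice, replicate 3 with 24.8 CPM and replicate 11 with 15.6 CPM were far above the other 9, all at or below 8.69 CPM, and replicate 3 alone reached into the UNT range. *Ren1* was 3.85-fold lower in PBS than in UNT kidneys (log2FC -1.95, SE 0.24, edgeR adjusted p = 3.19e-09). Every RGLS4326 mouse was below every UNT mouse, as in 16.1% of all tested genes in that contrast, with a log2FC of -2.15 (SE 0.24, edgeR adjusted p = 5.63e-10). Between RGLS4326 and PBS the log2FC was -0.20 (SE 0.24, edgeR adjusted p = 0.516), and without PBS replicate 3 it was 0.11 (adjusted p = 0.682). The treated mice spread less than the PBS mice, with SDs of 1.30 and 6.46 CPM, a difference that was not tested. PBS replicates 3 and 11 contributed most to the SD of the PBS mice. C57BL6 mice are known to carry a single renin gene, *Ren1*, but the tables also list its near-identical copy *Ren2*, which received a mean of 1.94 CPM in UNT, 0.507 CPM in PBS and 0.321 CPM in RGLS4326 kidneys. Reads shared by the copies are not uniquely mapped, so the absolute level of *Ren1* is uncertain.

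*Ace* (chr11:105967945-105989964, plus strand) encodes angiotensin converting enzyme, found on endothelium and on the brush border. It was at 198.9 to 345.3 CPM in UNT mice (median 250.7), at 49.9 to 171.6 CPM in PBS mice (median 91.0) and at 71.6 to 151.0 CPM in RGLS4326 mice (median 118.7). Both *Pkd2*-KO groups lay wholly below the UNT range. The fall from UNT to PBS was 2.60-fold (log2FC -1.38, SE 0.17, edgeR adjusted p = 4.39e-09), and RGLS4326 differed from PBS by 0.19 (SE 0.17, adjusted p = 0.381). The size against UNT depended on the settings. Over 15 alternatives the log2FC ran from -2.33 to -1.27 for PBS and from -2.16 to -0.80 for RGLS4326, and *Ace* was called lower in each. An exon of *Ace* overlaps the gene *Gm11651* on the opposite strand, and since the strand setting of the counting is not stated, the counts of *Ace* are uncertain to that extent.

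*Agtr1a* (chr13:30336441-30382867, plus strand) encodes the main type 1 angiotensin II receptor of the mouse kidney. Its level was 46.9 to 69.6 CPM in UNT mice (median 63.5), 16.9 to 37.7 CPM in PBS mice (median 26.8) and 30.0 to 48.0 CPM in RGLS4326 mice (median 36.1). PBS mice were all below UNT mice. The treated mice were each above the PBS mean, but their range overlapped that of PBS mice and, at its top, that of UNT mice. The log2FC was -1.23 (SE 0.11, edgeR adjusted p = 5.28e-13) for PBS against UNT and 0.49 (SE 0.11, adjusted p = 0.00289) for RGLS4326 against PBS. *Agtr1a* remained lower in RGLS4326 than in UNT kidneys, at -0.74 (SE 0.10, edgeR adjusted p = 7.04e-08).

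*Agtr1b* (chr3:20314473-20367177, minus strand), the second type 1 receptor gene of rodents, is known for its expression in the adrenal gland. It had 1 to 8 reads per library in UNT mice (median 4) and 1 to 9 in RGLS4326 mice (median 4). In PBS mice it had 0 to 74 reads (median 6), and its highest counts, 38 and 74, belonged to replicates 2 and 11, the libraries with adrenal mRNA. Without them the PBS counts ran from 0 to 9 with a median of 4, so that the groups covered the same low range and no difference was detectable at this depth. Fitted without the filter on low counts, *Agtr1b* had a log2FC of 1.57 for PBS against UNT (SE 0.51, edgeR adjusted p = 0.0060), and 0.12 (SE 0.38, adjusted p = 0.794) once replicates 2 and 11 were left out, an alternative chosen after seeing the data. *Agtr1a* and *Agtr1b* are close paralogs and may share reads, which matters most for the low counts of *Agtr1b*.

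**Figure D2:**
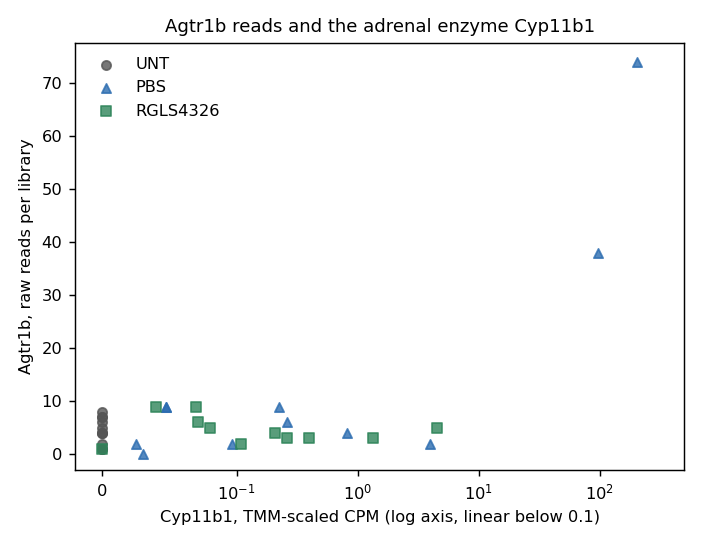
Raw *Agtr1b* reads per library (vertical axis) against *Cyp11b1* in TMM-scaled CPM (horizontal axis, logarithmic above 0.1), with UNT as circles, PBS as triangles and RGLS4326 as squares. The 2 PBS libraries at 97.0 and 202.0 CPM of *Cyp11b1* have 38 and 74 *Agtr1b* reads, and all the others have at most 9.

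Among the peptidases, *Enpep* (chr3:129269175-129332720, minus strand) encodes aminopeptidase A, which converts angiotensin II to angiotensin III. *Enpep* was at 261.5 to 384.9 CPM in UNT mice (median 298.7), at 56.0 to 153.3 CPM in PBS mice (median 98.5) and at 127.5 to 162.7 CPM in RGLS4326 mice (median 145.3). The UNT mice stood apart from all others, and the 11 treated mice were each above the PBS mean. *Enpep* was 2.97-fold lower in PBS than in UNT kidneys (log2FC -1.57, SE 0.13, edgeR adjusted p = 3.48e-13), higher in RGLS4326 than in PBS kidneys by 0.48 (SE 0.13, adjusted p = 0.00837), and still lower than in UNT kidneys by a log2FC of -1.08 (SE 0.13, adjusted p = 2.65e-09).

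*Mme* (chr3:63241537-63386030, plus strand) encodes neprilysin, which cleaves angiotensin I as well as natriuretic peptides. It ran from 208.6 to 382.9 CPM in UNT mice (median 234.1), from 48.2 to 191.0 CPM in PBS mice (median 129.7) and from 116.5 to 215.1 CPM in RGLS4326 mice (median 181.3). The highest treated mouse reached just past the lowest UNT mouse, and 10 of 11 treated mice were above the PBS mean. The log2FC was -1.01 (SE 0.15, edgeR adjusted p = 1.52e-07) for PBS against UNT and 0.38 (SE 0.15, adjusted p = 0.0496) for RGLS4326 against PBS, which is just inside the threshold. *Mme* is the gene that carries the seed match printed above. Its increase after treatment was no longer called when PBS replicates 2 and 11 were left out (0.33, edgeR adjusted p = 0.131), nor when any of 15 of the 22 PBS and RGLS4326 libraries was left out alone (0.30 to 0.44 over the 22).

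*Atp6ap2* (chrX:12587801-12617049, plus strand) encodes the (pro)renin receptor, which is also an accessory subunit of the vacuolar proton pump (V-ATPase). Its level was 153.4 to 217.7 CPM in UNT mice (median 160.6), 94.6 to 131.8 CPM in PBS mice (median 116.3) and 116.9 to 140.7 CPM in RGLS4326 mice (median 126.8). Neither *Pkd2*-KO group overlapped the UNT group. The decrease was the smallest of the 6 called, 1.48-fold (log2FC -0.57, SE 0.06, edgeR adjusted p = 1.40e-10). Against PBS, RGLS4326 gave 0.15 (SE 0.06, edgeR adjusted p = 0.0568), and each of the 11 treated mice exceeded the PBS mean.

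The second question was what RGLS4326 changed in cystic kidneys. *Agtr1a*, *Enpep* and *Mme* were called higher in RGLS4326 than in PBS kidneys, 3 of the 7 genes tested, and none was called lower. With the percentage of reads outside genes as a covariate none of the 3 was called, with a log2FC of 0.42 for *Agtr1a* (edgeR adjusted p = 0.0756), 0.45 for *Enpep* (adjusted p = 0.109) and 0.33 for *Mme* (adjusted p = 0.252), and 89 genes were called in all. Over all tested genes 33.8% were called in this contrast, 15.3% as higher and 18.5% as lower. The median log2FC was 0.19 over the 7 genes and 0.00 over all genes. In no member did the RGLS4326 and PBS ranges separate, and only 0.0639% of all tested genes did so. Without PBS replicates 2 and 11, *Agtr1a* (0.40, edgeR adjusted p = 0.0178) and *Enpep* (0.37, adjusted p = 0.0361) were called higher, 2 of 7 genes, and 7.67% of the genes tested were called higher. *Atp6ap2* then had 0.13, *Ace* 0.08, *Agt* -0.12 and *Ren1* -0.17. Against UNT kidneys, 6 of 7 genes were lower after RGLS4326, again all but *Agt*, beside 36.9% of the tested genes called lower in this contrast (77.7% called in either direction). The same 6 were called without PBS replicates 2 and 11. This contrast holds no PBS library, so leaving them out bears only on the shared fit. With the percentage of multiply aligned reads as a covariate, *Mme* (-0.83, edgeR adjusted p = 0.0659) and *Atp6ap2* (-0.26, adjusted p = 0.159) were no longer called against UNT and *Agt* was called lower (-1.20, adjusted p = 6.17e-05). With the percentage of reads outside genes as a covariate *Agt* was also called lower in RGLS4326 than in UNT kidneys (-0.34, edgeR adjusted p = 0.0177). PBS mice enter both of the first contrasts, so their values are given side by side and were not correlated.

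**Figure D3:**
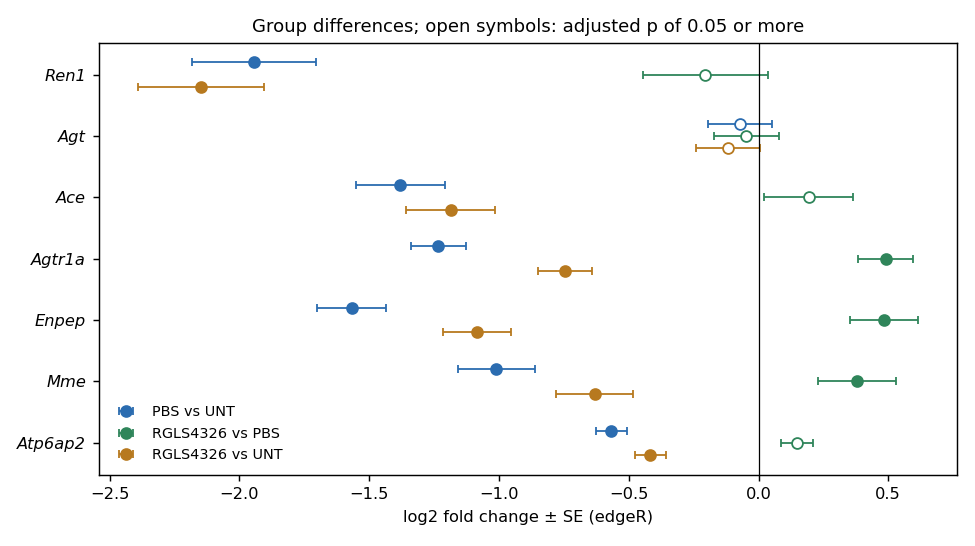
Log2 fold changes (horizontal axis, edgeR, error bars ± SE) of the 7 tested genes for PBS vs UNT, RGLS4326 vs PBS and RGLS4326 vs UNT; open symbols have an adjusted p of 0.05 or more. Except for *Agt*, both contrasts with UNT lie at -0.42 or below, and the contrast of RGLS4326 with PBS lies between -0.20 and 0.49.

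Within the numbering blocks, the disease difference kept its direction in each called gene. *Ren1* was lower by a log2FC of -1.41, -2.71 and -1.80 in blocks 1, 2 and 3, *Enpep* by -1.81, -1.22 and -1.83, and *Mme* by -0.90, -0.59 and -1.58. The difference of RGLS4326 from PBS was positive in each block for *Agtr1a* (0.72, 0.31 and 0.51), *Enpep* (0.81, 0.18 and 0.57) and *Mme* (0.49, 0.24 and 0.47). None of these was called within a block of 3 or 4 mice per group, where the smallest edgeR adjusted p was 0.0663. *Ace* changed sign between blocks, at 0.52, -0.27 and 0.20. *Agt* was called lower after RGLS4326 in block 2 (-0.47, edgeR adjusted p = 0.0114), with 0.19 and 0.03 in blocks 1 and 3. In block 2 alone 25.5% of all genes tested were called between RGLS4326 and PBS, 11.9% as lower, so that 1 of 7 members was near the share over all genes. Against UNT, block 2 alone also had *Agt* called lower after RGLS4326 (-0.65, edgeR adjusted p = 0.000226) and *Mme* not called (-0.35, adjusted p = 0.0625).

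**Figure D4:**
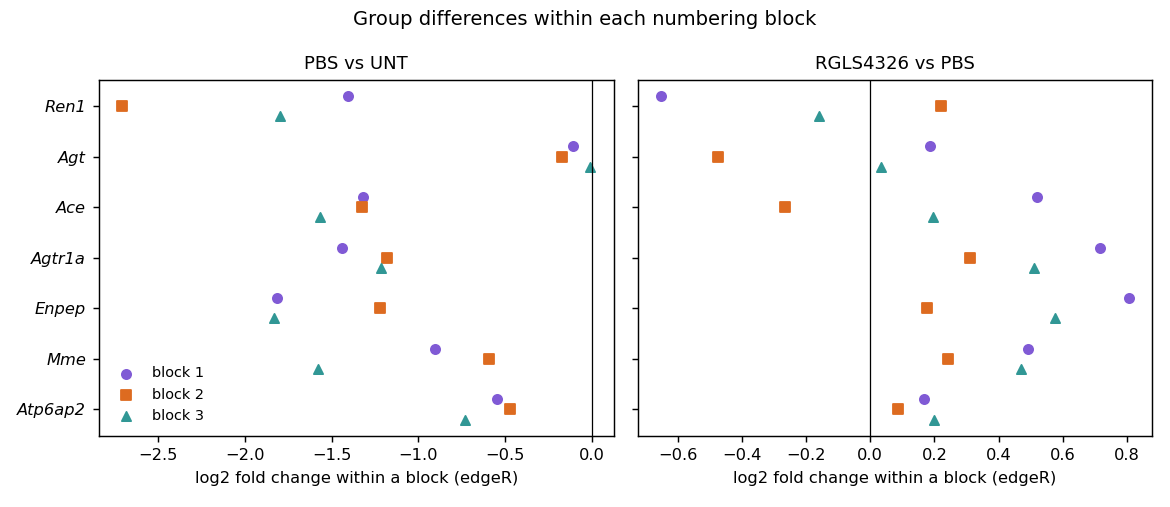
Log2 fold changes (horizontal axis, edgeR) of the 7 tested genes within each of the 3 numbering blocks, for PBS vs UNT on the left and RGLS4326 vs PBS on the right. On the left all points lie below 0, and on the right *Agtr1a*, *Enpep*, *Mme* and *Atp6ap2* lie above 0 in each block while *Ren1*, *Agt* and *Ace* fall on both sides.

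Per length of the exons, the levels of the genes can be set beside each other. In UNT kidneys the mean levels were 65.3 CPM per kb for *Enpep*, 65.0 for *Atp6ap2*, 49.1 for *Ace*, 42.7 for *Agt*, 23.6 for *Mme*, 22.4 for *Agtr1a*, 19.6 for *Ren1* and 0.053 for *Agtr1b*. Neighbours in this order overlapped in their ranges over mice, apart from *Ren1* and *Agtr1b*. In PBS kidneys *Atp6ap2* (43.9 CPM per kb) and *Agt* (40.7) came first, ahead of *Enpep* (22.0) and *Ace* (18.9), and *Agt* was above *Enpep* in 11 of 11 mice. *Ren1* had 5.07 CPM per kb in PBS and 4.42 in RGLS4326 kidneys, where its range no longer overlapped that of *Agtr1a* (13.4). The exon lengths come from GENCODE M21, whereas the annotation used in the counting is not stated.

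Several of these genes are expressed in the proximal tubule, whose markers also moved. All 12 proximal tubule markers were lower in PBS than in UNT kidneys, with a median log2FC of -2.64, beside 39% of all tested genes. Examples were *Slc5a2*, the glucose transporter of the early tubule, at -2.79, *Slc34a1*, a phosphate transporter, at -2.87, and *Lrp2*, the endocytic receptor megalin, at -2.59. Their summed level was 2067 to 7722 CPM in PBS mice, against 29941 to 41211 CPM in UNT mice, and 4099 to 7808 CPM in RGLS4326 mice. Much of this sum was *Kap*, with a mean of 18327 of 35282.5 CPM in UNT and 1056 of 4350.4 CPM in PBS mice. *Kap* fell most of the 12 (-4.12) and is named here after its values were seen. Between RGLS4326 and PBS, 6 of 12 markers were called higher, with a median of 0.53, beside 15.3% of all tested genes. The counts without PBS replicates 2 and 11 were 12 lower against UNT and 5 higher after RGLS4326. In whole kidney, fewer cells of a type and less RNA per cell cannot be told apart. The part of the tubule markers in the changes of the renin-angiotensin genes was not tested beyond the comparison that follows.

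The level of *Agt*, *Ace*, *Enpep* and *Mme* relative to the mean of the tubule markers was computed in each mouse on the log2(CPM + 1) scale. The mean of the markers themselves was lower by -2.68 in PBS than in UNT kidneys and higher by 0.64 in RGLS4326 than in PBS kidneys. Since the markers were chosen with results known and their own change enters each relative level, these values are a description, given without p. Relative to the markers, the difference of PBS from UNT was 2.61 for *Agt*, 1.64 for *Mme*, 1.21 for *Ace* and 1.05 for *Enpep*. *Mme*, *Ace* and *Enpep* thus fell less than the mean of the markers. The marker that fell least, the water channel *Aqp1*, had a log2FC of -1.07, between the -1.01 of *Mme* and the -1.38 of *Ace* and -1.57 of *Enpep*. The size depended on the reference, and with 8 brush border peptidases in place of the markers the differences were 1.80 for *Agt*, 0.84 for *Mme*, 0.40 for *Ace* and 0.25 for *Enpep*. Between RGLS4326 and PBS the relative differences were -0.69 for *Agt*, -0.36 for *Ace*, -0.20 for *Mme* and -0.08 for *Enpep*, and with brush border peptidases as the reference they were -0.49 for *Agt*, -0.16 for *Ace*, 0.0020 for *Mme* and 0.12 for *Enpep*, which changed sign. With PBS replicates 2 and 11 left out, the differences from UNT were 2.54 for *Agt*, 1.53 for *Mme*, 1.17 for *Ace* and 1.03 for *Enpep*, and those of RGLS4326 from PBS were -0.63, -0.33, -0.09 and -0.06 for *Agt*, *Ace*, *Mme* and *Enpep*.

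Within groups the genes also varied together to different degrees. Pairs were compared with two-sided permutation tests of 100000 resamples. After removal of the group means from log2(CPM + 1), *Ace* and *Enpep* had a Pearson r of 0.81 over 34 mice (permutation p = 1e-05, adjusted p = 0.00021 over 21 pairs) and a Spearman rho of 0.80 (permutation p = 1e-05, adjusted p = 0.00021). Without the 2 mice farthest from the median, r was 0.76, and with the block means also removed it was 0.87. For *Agtr1a* and *Enpep*, r was 0.76 (permutation p = 0.00012, adjusted p = 0.00084) and rho 0.68 (permutation p = 0.00027, adjusted p = 0.00142), with r = 0.67 without the 2 farthest mice and 0.79 with block means removed. By group, r for this pair was 0.39 in UNT, 0.92 in PBS and 0.18 in RGLS4326 mice. The pair *Ace* and *Enpep* had r = 0.81, and *Agtr1a* and *Enpep* r = 0.68, without PBS replicates 2 and 11. Of the 21 pairs, 10 were called by Pearson's r, with or without these libraries, and 7 once the block means were also removed. The share of pairs called among other genes was not computed, so these counts do not set the renin-angiotensin genes apart. With block means removed, *Ace* and *Mme*, *Enpep* and *Atp6ap2*, and *Mme* and *Atp6ap2* had a permutation adjusted p of 0.0602. Their r was then 0.55, 0.44 and 0.51, beside 0.49, 0.44 and 0.59 with only the group means removed. No pair with *Ren1* was called by Pearson's r, with r from -0.30 for *Atp6ap2* to 0.21 for *Agt*. For *Ren1* and *Agt*, rho was 0.42 (permutation p = 0.0147, adjusted p = 0.0286), but r was 0.21 (permutation p = 0.241, adjusted p = 0.338). By group, r for *Ren1* and *Agt* was 0.68 in UNT, -0.02 in PBS and 0.61 in RGLS4326 mice, and for *Ren1* and *Mme* it was -0.77, 0.09 and 0.01, so the pooled values do not describe each group.

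As a description, the deviations of each gene were set beside the mean of the 12 tubule markers over the 34 mice. The correlation was 0.87 for *Enpep*, 0.82 for *Ace*, 0.70 for *Agtr1a*, 0.51 for *Agt*, 0.43 for *Mme*, 0.37 for *Atp6ap2* and -0.12 for *Ren1*. All points share library, depth and scaling. The groups differed in these values, which were not tested by group. For *Agtr1a* the correlation was 0.05 in UNT, 0.89 in PBS and 0.09 in RGLS4326 mice, and for *Agt* it was -0.30, 0.81 and 0.55. *Enpep* had 0.48, 0.93 and 0.90, *Ace* 0.10, 0.90 and 0.79, and *Ren1* -0.69, -0.16 and 0.46. Among all tested genes, those most like *Enpep* by Spearman's rho of the deviations included *Slc5a8* (0.90) and *Cyp2j5* (0.88). For *Ace* they were *Mep1a*, which encodes the brush border protease meprin alpha (0.88), *Slc26a1* (0.86) and *Abat* (0.86), and for *Agtr1a* they were *Acsm5* (0.80), *Slc25a16* (0.80) and *Acmsd* (0.79). *Agt* was closest to *Btd* (0.85), *Igfals* (0.84) and *Echdc3* (0.81). *Mme* followed *Med14* (0.94), *Itgb8* (0.92) and *Pdpr* (0.91), and *Atp6ap2* followed *Ppp3r1* (0.82), *Tmem167b* (0.80) and *Scamp1* (0.79). The nearest genes of *Ren1*, *Nrxn2* (0.68), *Emc9* (0.65) and *Lig1* (0.64), were less close.

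Another 18 genes of angiotensin and kinin metabolism were examined beside the 8, of which 13 were tested. In PBS against UNT kidneys 7 were called higher and 3 lower, with a median log2FC of 0.14. Over all tested genes 43.1% were called higher and 39% lower in this contrast. *Klk1*, tissue kallikrein, which releases kinins in the distal nephron, fell most, from 2119 to 385.3 CPM (-2.46, edgeR adjusted p = 1.37e-20), and was at 375.2 CPM after RGLS4326. *Anpep*, aminopeptidase N, was lower by a log2FC of -1.04. *Lnpep*, the insulin-regulated aminopeptidase that binds angiotensin IV, rose from 11.7 to 48.7 CPM (2.06, edgeR adjusted p = 2.29e-10). The intracellular or secreted peptidases *Rnpep* (0.90), *Thop1* (0.55), *Dpp3* (0.55) and *Prep* (0.54) were higher as well. When PBS replicates 2 and 11 were left out, 14 of the 18 were tested, with 7 higher and 4 lower. *Agtr2*, the type 2 angiotensin receptor, went from -0.70 (edgeR adjusted p = 0.0531) to -1.04 (adjusted p = 0.00644), *Mas1*, a receptor for an angiotensin fragment, passed the filter and was higher (0.999, adjusted p = 0.0274), and *Agtrap* was no longer called higher (0.12, adjusted p = 0.0694). These 3 are named here after their values were seen. Both receptors were near the floor over all libraries. *Agtr2* had means of 0.442 CPM in UNT and 0.265 CPM in PBS mice, and *Mas1* 0.132 and 0.258 CPM, so few reads underlie these differences.

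Between RGLS4326 and PBS, none of these 13 genes was called higher and 3 were called lower, beside 15.3% and 18.5% of all tested genes. These were *Rnpep*, aminopeptidase B (-0.35, edgeR adjusted p = 0.00592), *Ctsa*, cathepsin A (-0.23, adjusted p = 0.0219), and *Agtrap*, a protein that binds the type 1 receptor (-0.19, adjusted p = 0.0128). All 3 were also called without PBS replicates 2 and 11. *Mas1*, *Cma1*, *Cpa3*, *Ctsg* and *Mrgprd*, which encode receptors and mast cell or neutrophil proteases, were too low to be tested over all libraries, with group means of at most 0.258 CPM.

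Brush border peptidases were lower in PBS kidneys in 8 of 8 cases (median log2FC -1.78), among them *Ggt1* (-2.10) and *Mep1a* (-2.00). After RGLS4326 a single one, the dipeptidase *Dpep1*, was higher than in PBS kidneys (0.41, edgeR adjusted p = 0.00599), and without PBS replicates 2 and 11 the counts were again 8 lower and 1 higher. Among 21 V-ATPase subunits, the partners of *Atp6ap2* in the proton pump, 14 were lower and 2 higher in PBS against UNT kidneys, with a median of -0.47. Between RGLS4326 and PBS none was higher and 6 were lower, with a median of -0.16, where *Atp6ap2* itself had 0.15. Without PBS replicates 2 and 11, 14 were lower and 1 higher against UNT, and 3 were lower after RGLS4326. With all libraries, 39% of all tested genes were called lower and 43.1% higher in PBS against UNT kidneys. After RGLS4326, 18.5% were called lower and 15.3% higher than in PBS kidneys.

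**Figure D5:**
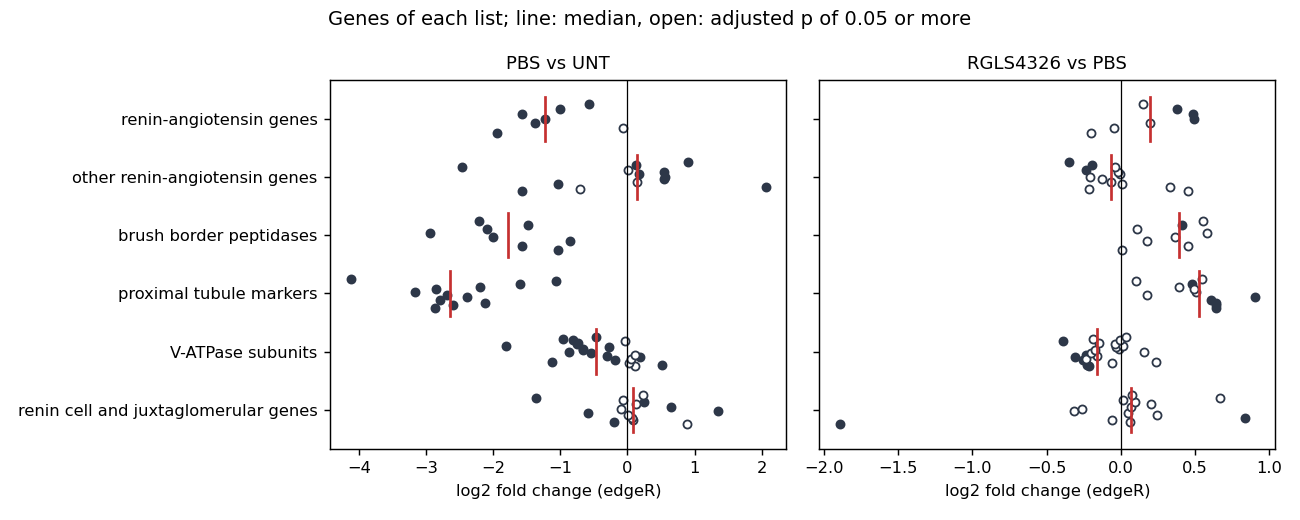
Log2 fold changes (horizontal axis, edgeR) of the tested genes of each list, for PBS vs UNT on the left and RGLS4326 vs PBS on the right. Points are genes, red lines are medians and open points have an adjusted p of 0.05 or more. On the left the renin-angiotensin genes have a median of -1.23 and the proximal tubule markers a median of -2.64, and on the right these medians are 0.19 and 0.53.

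Genes known from renin-producing and neighbouring juxtaglomerular cells were called in both directions. In PBS against UNT kidneys 3 of 14 were higher and 3 lower, beside 43.1% and 39% of all tested genes. The median log2FC was 0.08, and without PBS replicates 2 and 11 the counts were 2 and 3. *Ep300* (0.19, edgeR adjusted p = 0.109) and *Gja4* (-0.18, adjusted p = 0.0931) then lost their calls. *Rbpj*, a Notch effector involved in renin expression, was higher (0.65, edgeR adjusted p = 1.08e-12), as was the adenosine receptor *Adora1* (1.35, adjusted p = 1.75e-10). *Adcy6*, an adenylyl cyclase, was lower (-0.58, edgeR adjusted p = 4.81e-10), and so was *Nos1*, the nitric oxide synthase of the macula densa (-1.37, adjusted p = 5.31e-05). Between RGLS4326 and PBS, 1 gene was called higher and 1 lower, beside 15.3% and 18.5% of all tested genes. Both are named here after their values were seen. *Rgs5*, a pericyte regulator of G protein signalling, rose by 0.84 (edgeR adjusted p = 0.000934), and by 0.76 without PBS replicates 2 and 11 (adjusted p = 0.00873). *Akr1b7*, an aldo-keto reductase of renin cells and of the adrenal cortex, had -1.89 (edgeR adjusted p = 0.00605). Its levels in PBS replicates 2 and 11 were 112.1 and 97.5 CPM and at most 7.68 CPM in the other PBS mice, and without these libraries its log2FC was 0.06 (adjusted p = 0.791). Against UNT kidneys its log2FC in PBS kidneys was 0.88 (edgeR adjusted p = 0.0707) with these libraries and -1.06 (adjusted p = 2.88e-08) without them, and that of RGLS4326 against UNT was -1.01 (adjusted p = 0.0494).

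Markers of the vessel wall, the neighbourhood of renin cells, were mostly higher where *Ren1* was lower. Of 8 vascular smooth muscle and pericyte markers, 7 were higher and 1 lower in PBS against UNT kidneys, with summed levels of 344.5 to 559.1 CPM in UNT, 1036 to 1721 CPM in PBS and 1057 to 1493 CPM in RGLS4326 mice. *Acta2* and *Tagln*, contractile proteins that myofibroblasts also make, led with 2.16 and 2.56. Their means in PBS mice were 403.0 and 401.5 CPM, of a mean sum of 1295 CPM. The marker called lower was *Myh11* (-0.48, edgeR adjusted p = 0.000621), named here after its value was seen. All 6 fibroblast markers and all 6 tested macrophage markers were also higher in PBS kidneys, where 43.1% of all tested genes were called higher and 39% lower. Podocyte markers, from the glomerulus next to the renin cells, were lower in 5 and higher in 2 of 7 cases, and endothelial markers, the other site of *Ace*, were lower in 5 and higher in 3 of 8. Against UNT the counts of these 5 lists were the same without PBS replicates 2 and 11. Collecting duct markers, from the segment in which the Cre transgene is active, were higher in 7 and lower in 3 of 10 cases, and higher in 5 and lower in 3 without these libraries. After RGLS4326, 5 of 7 podocyte markers were higher and 1 lower than in PBS kidneys, 6 of 8 endothelial markers were higher, 4 of 6 macrophage markers and 5 of 10 collecting duct markers were lower, 1 fibroblast marker was higher and 1 vessel wall marker was lower, where 15.3% of all tested genes were called higher and 18.5% lower. Without PBS replicates 2 and 11, 3 podocyte, 3 endothelial and 1 fibroblast marker were higher, and 2 macrophage and 4 collecting duct markers were lower. The part of these cell types in the changes of *Ren1*, *Ace* and *Agtr1a* was not tested.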

How the data were processed

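The authors prepared stranded mRNA libraries from polyadenylated kidney RNA. Per the submitters' processing notes, FastQC (version 0.11.2), Trim Galore, STAR, SAMtools (version 1.1), HTSeq (version 0.6.1) and Picard (version 1.119) were used with the mouse genome GRCm38 (mm10). Each of the 34 deposited tables held the raw counts of a single mouse by gene symbol, neither normalized nor pooled. The gene annotation and strand setting are not given in the sources used here. The totals of reads outside genes (4.94 to 12.0% of a library) and of multiply aligned reads (14.8 to 25.7%) were kept out of library sizes and tests. No 2 libraries were identical (0 pairs).

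Groups were taken from the labels. Counts of all 34 libraries entered a single fit of edgeR (version 4.0.16, R version 4.3.3) with TMM factors, filterByExpr, 3 groups and no covariate. The quasi-likelihood test was two-sided, and p was adjusted by Benjamini-Hochberg over 15644 genes. The procedure was tested on simulated data. A pseudocount of 1 was used on the log2 scale for relative levels and correlations, with Python 3.11.15, numpy 2.4.6, pandas 2.3.3, scipy 1.17.1 and matplotlib 3.10.9. Where intervals are not given, precision rests on the spread between mice.

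The members and all gene lists were chosen with earlier results of these data known. All 8 members were named, with the tested genes of angiotensin and kinin metabolism that were called between RGLS4326 and PBS or had the 8 smallest p between PBS and UNT, up to 4 genes of each other list with the smallest p between PBS and UNT, and the 3 genes most like each member. Some genes that this rule names are not reported here, though they are included in the counts and medians of their lists. Alternatives were other scalings, DESeq2 (version 1.42.0), no filter, other sets of samples, covariates and blocks, another pseudocount or reference list, and each library left out. The alternatives without adrenal libraries were chosen after seeing the data.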

Additional observations from a re-analysis of the deposited data

How the results depend on the processing

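In the contrasts with UNT, 6 members were called under each library left out, with 12712 to 12916 genes called for PBS and 12008 to 12207 for RGLS4326. With the percentage of multiply aligned reads as a covariate, 7338 and 7316 genes were called in these contrasts, in place of 12841 and 12157. The contrast of RGLS4326 with PBS depended more on the settings. Its 5280 called genes became 4023 to 6209 and its 3 called members 2 to 4 when 1 library was left out. Fitted alone, block 1 gave 54 called genes and 0 members, block 2 gave 4065 genes and 1 member (*Agt*, lower), and block 3 gave 0 genes by edgeR's adjusted p (2826 at an unadjusted p under 0.05) and 0 members. With the percentage of reads outside genes as a covariate, 89 genes and 0 members were called. Then the log2FC was 0.42 for *Agtr1a* (edgeR adjusted p = 0.0756) and 0.45 for *Enpep* (adjusted p = 0.109). Without PBS replicates 2 and 11, 2836 genes were called, and without every library with *Cyp11b1* above 1 CPM, 3269. With brush border peptidases as the reference the relative level moved from -0.36 to -0.16 for *Ace*, from -0.20 to 0.0020 for *Mme* and from -0.08 to 0.12 for *Enpep*. No call of a renin-angiotensin gene turned into a call of the opposite sign. *Akr1b7* went from -1.89, called, to 0.06 in RGLS4326 against PBS and from 0.88 to -1.06, called, in PBS against UNT without PBS replicates 2 and 11. The cause of these changes was not tested.

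*Agtr1a* and *Enpep* lost their call against PBS in 4 of 15 alternatives (each block alone and the covariate above) and *Mme* in 9 of 15, while *Atp6ap2* gained a call in 3 of 15. Replicate numbers are shared by the groups, but the mice are not paired by them. The deviations of same-numbered mice correlated by more than 0.1 in 2, 5 and 3 of 11 pairs (PBS and UNT, RGLS4326 and PBS, RGLS4326 and UNT), and 0, 1 and 1 mice correlated best with their own number. With the replicate block, 12513, 4420 and 11717 genes and 6, 3 and 6 members were called, and no member's call changed.

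Depth limits *Agtr1b*, with at most 9 reads in all but 2 libraries. The edgeR p-values set each group difference against the spread between these mice. The percentages of reads outside genes and of multiply aligned reads differ between groups.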
